A study of Mus musculus with 27 samples.

Results

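The comparison described here is that of C2C12 cells expressing the Δpro#3 mutant of NFIA at day 7 against the same cells at day 0, over all genes. The 3 day-0 and 3 day-7 samples of these cells without forskolin were used, which are 6 of the 27 samples of the series. C2C12 is an established mouse myoblast line. Nuclear factor I-A (NFIA) is a transcription factor, and the Δpro#3 mutant lacks one of the proline-rich stretches in its C-terminal part. It carries a FLAG tag and was brought into the cells with a retrovirus, so it was expressed on top of whatever NFIA the cells make themselves. Day 0 is the start of adipogenic induction at confluence. All cells taken to day 7, whatever they expressed, were first given an adipogenic cocktail (10% fetal bovine serum with isobutylmethylxanthine, indomethacin, dexamethasone, insulin, the thyroid hormone T3 and rosiglitazone) and then serum with insulin, T3 and rosiglitazone only. The medium and the time therefore changed together, and their parts cannot be told apart. The other cells used for comparison were control cells and cells expressing full-length NFIA, each with 3 samples at day 0 and 3 at day 7 and the same medium. The 3 samples of a group are numbered replicates, and nothing in the labels says that they came from separate cultures, so the p-values measure only the spread between these samples, which may be technical.

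Myoblasts that leave the cell cycle switch on myogenin under the control of MyoD, fuse into myotubes and make the proteins of the sarcomere, the contractile unit of muscle. The adipogenic cocktail instead feeds a cascade in which C/EBP factors and the nuclear receptor PPARγ, the target of rosiglitazone, turn on genes for taking up and storing fat. NFIA is known as a factor of the brown adipocyte program, and C2C12 cells, which are of the muscle lineage, can be taken down either path.

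Expression is given as FPKM, a fragment number scaled by the length of the gene and by the depth of the sample. Changes are log2 ratios of FPKM + 1 (day 7 over day 0), so they understate the change of genes near 0. A gene was called higher or lower, and is said to have risen or fallen, where the adjusted p of limma was under 0.05 and the change exceeded 3-fold. The 6 samples held 11310146 to 25924037 fragments, and the shallowest was replicate 1 of day 7. This library also stood apart. Between pairs of day-0 replicates, a chi-squared per gene of 1.52 to 2.37 was found (about 1 is counting noise), and between day-7 replicates 2 and 3 it was 5.66, but day-7 replicate 1 differed from the others by 13.3 and 13.6. For results that this library moves most, the value without it is given. The median change of all 12408 genes tested was -0.11, and -0.00 after median-ratio scaling between samples.

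The introduced gene was checked first. Nfia (chromosome 4, 97439425 to 97868605 on the mm9 build) stood at 423, 398 and 397 FPKM in the day-0 samples of the Δpro#3 mutant-expressing cells and at 480, 383 and 374 FPKM at day 7. The groups overlapped, and the change was 0.01 ± 0.43 (SE, limma adjusted p = 0.976). This SE is estimated from all 18 samples of the fit, including the uneven control samples given next. In control cells, Nfia was at 0.879, 7.35 and 0.175 FPKM at day 0 and at most 0.253 FPKM at day 7, far below these levels in every library. In cells expressing full-length NFIA, the mean was 242 ± 14.2 FPKM at day 0 and 482 ± 40.1 FPKM at day 7 (SD, n = 3). A value for the whole gene cannot tell the mutant from the full-length transcript, so it checks that the gene was introduced and not which form. Of the other members of the NFI family, which can pair with NFIA, Nfib went from 7.51, 7.24 and 7.09 to 3.06, 3.32 and 3.37 FPKM and Nfix from 39.8, 38.8 and 38.8 to 19, 18.9 and 15.6 FPKM. Neither passed 3-fold (changes of -0.96 and -1.10). Nfic, at 37.4, 34.5 and 36.7 and then 33.8, 41.3 and 35.4 FPKM, overlapped between the days.

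Over all genes, 485 of 12408 (3.91%) rose and 364 (2.93%) fell in Δpro#3 mutant-expressing cells between day 0 and day 7, or 542 and 287 after median-ratio scaling, 736 and 671 with a pseudocount of 0.1, and 795 and 746 with limma-voom on fragments. The rises were larger than the falls. More than 10-fold changes were found for 153 higher and 8 lower genes, more than 30-fold for 66 higher and 0 lower genes, and more than 100-fold for 21 higher and 0 lower genes. Of the 66 genes over 30-fold higher, 44 were in 1 of the 3 lists of muscle genes described below. Much smaller changes also passed the adjusted p, with 4065 genes higher (32.8%) and 5794 lower (46.7%) at an adjusted p under 0.05 alone (4851 and 4877 after median-ratio scaling, so the excess of lower genes rests on the scale), and the samples of both days did not overlap for 4148 genes higher (33.4%) and 5852 lower (47.2%) at day 7. As these are bulk samples, fewer cells of a type and less RNA per cell cannot be told apart.

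The genes of the contractile apparatus made up the largest rises. Of the 46 sarcomere genes tested, 43 rose (3.91% of all genes) and none fell (2.93%), with a median change of 5.98 against -0.11 over all genes. The summed FPKM of the 47 sarcomere genes in the files was 561, 566 and 557 at day 0 and 30277, 30437 and 28976 at day 7, which is 53.2-fold. Myl1, which encodes the fast alkali light chain of myosin, showed the largest rise of all genes, from 8.80, 8.94 and 8.17 to 3934, 3682 and 3477 FPKM (8.58 ± 0.10 SE, limma adjusted p = 1.34e-19). Acta1, skeletal muscle actin, went from 15.3, 16.2 and 16.7 to 5099, 4682 and 4715 FPKM (8.14), and Tnni2, the fast troponin I, from 4.45, 2.74 and 4.05 to 1540, 1681 and 1573 FPKM (8.41). For each of these genes, the lowest day-7 sample was far above the highest day-0 sample. The other genes among the 10 largest rises were also of muscle. Mylpf, the fast regulatory light chain, rose by 7.51, Mybph, a myosin binding protein, by 7.56, and Smpx, a small muscle protein, by 8.13. The myosin genes of the embryo and newborn rose too, with Myl4 going from 3.49, 2.54 and 3.02 to 959, 1038 and 909 FPKM (7.92) and Myh8 from 0.282, 0.185 and 0.182 to 280, 243 and 229 FPKM (7.69). The 3 sarcomere genes that did not pass 3-fold were Tmod4 (1.10), Mylk2 (1.19) and Ldb3 (1.28), named after their values were seen.

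To show what lies in front of the genes with the largest changes, the 250 bases upstream of the transcription start are given for the 2 sarcomere genes and the 2 genes of mitosis that changed most and have a single start in the RefSeq promoter table (GRCm38.p6 build, not the mm9 build of the files). They are written 5′ to 3′ on the strand of the gene. Capitals mark the E-box CAGCTG, a letter pattern that MyoD and myogenin are known to bind, in the sarcomere genes, and CCAAT or TTTGAA (the CHR element known from late cell cycle genes), on either strand, in the genes of mitosis.
Myl1 (chr1:66945057-66945306, minus strand): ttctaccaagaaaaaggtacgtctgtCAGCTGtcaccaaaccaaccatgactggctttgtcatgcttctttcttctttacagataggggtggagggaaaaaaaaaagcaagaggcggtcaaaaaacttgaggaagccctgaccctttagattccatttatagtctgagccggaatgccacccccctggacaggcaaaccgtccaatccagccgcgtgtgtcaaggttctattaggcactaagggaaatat
Acta1 (chr8:123894776-123895025, minus strand): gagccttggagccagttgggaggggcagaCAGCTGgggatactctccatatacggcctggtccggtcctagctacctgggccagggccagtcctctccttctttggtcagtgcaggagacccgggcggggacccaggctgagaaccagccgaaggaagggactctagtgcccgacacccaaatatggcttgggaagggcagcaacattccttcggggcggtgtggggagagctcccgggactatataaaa
Mki67 (chr7:135716380-135716629, minus strand): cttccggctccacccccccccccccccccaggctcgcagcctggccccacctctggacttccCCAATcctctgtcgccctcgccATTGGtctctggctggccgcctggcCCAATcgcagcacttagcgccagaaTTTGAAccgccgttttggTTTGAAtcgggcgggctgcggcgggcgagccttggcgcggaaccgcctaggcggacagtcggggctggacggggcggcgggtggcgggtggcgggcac
Hmmr (chr11:40733438-40733687, minus strand): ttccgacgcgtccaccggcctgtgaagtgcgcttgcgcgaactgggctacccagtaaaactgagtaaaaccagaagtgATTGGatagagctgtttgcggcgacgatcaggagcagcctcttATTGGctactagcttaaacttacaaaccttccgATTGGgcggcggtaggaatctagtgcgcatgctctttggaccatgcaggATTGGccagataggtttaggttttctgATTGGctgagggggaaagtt

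The promoters of Myl1 and Acta1 each hold 1 CAGCTG, while those of Mki67 and Hmmr each hold 5 matches, which in Hmmr are all CCAAT read on the other strand. Over the lists, CAGCTG was in 12 of 40 upstream windows (30%) of the 34 sarcomere genes with an entry and in 15 of 28 (53.6%) of 20 genes of muscle excitation and energy, against 12.3% of the 12153 windows of all genes tested that have an entry and 13.0% of all 32851 windows in the table. CCAAT, on either strand, was in 26 of 36 windows (72.2%) of 34 mitosis genes, in 23 of 39 (59.0%) of 33 DNA replication genes and in 15 of 19 (78.9%) of 16 cholesterol synthesis genes, against 35.4% for all genes tested. TTTGAA was in 13 of the 36 mitosis windows (36.1%) and in 10.3% of those of all genes tested. The sterol response element TCACNCCAC was in none of the 19 cholesterol synthesis windows and in 0.922% of those of all genes tested. No marked matches overlap in the sequences shown, and a match is only a run of letters, not a measured binding site.

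**Figure D1:**
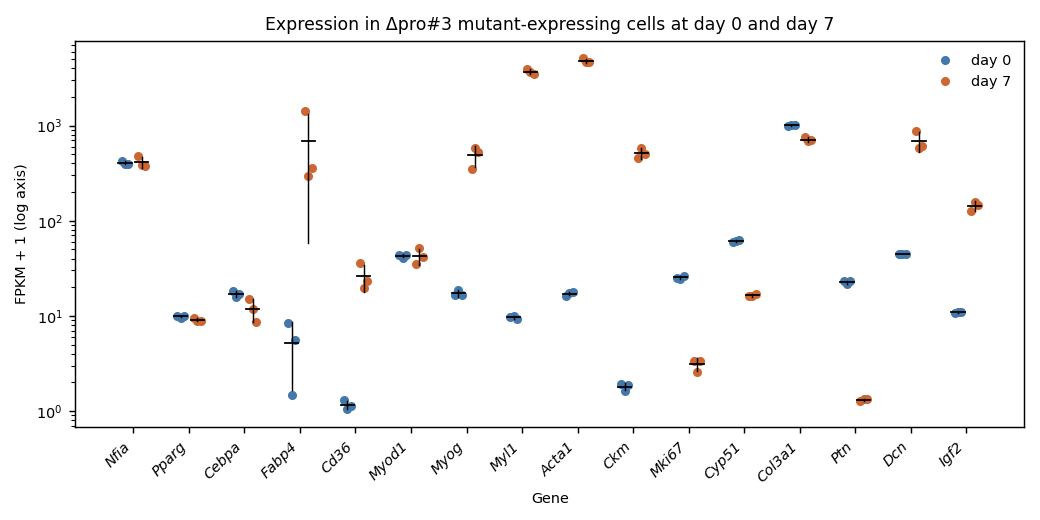
FPKM + 1 (log axis) of 16 genes in each of the 3 day-0 (blue) and 3 day-7 (orange) samples of Δpro#3 mutant-expressing cells, with the mean (horizontal line) and SD (vertical line). The muscle genes Myl1 and Acta1 are at 3477 FPKM or more in every day-7 sample, Nfia, Pparg and Myod1 lie at like levels on both days, and Fabp4 is spread widely on each day.

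The genes of muscle excitation and energy supply rose as well, with 28 of 30 tested called higher (3.91% of all genes) and none lower, and a median change of 4.09. Mb, the oxygen-binding myoglobin, went from 1.86, 1.56 and 1.32 to 700, 765 and 754 FPKM (8.17), and Ckm, the muscle creatine kinase, from 0.903, 0.632 and 0.872 to 459, 585 and 496 FPKM (8.15). Atp2a1, the calcium pump of the fast sarcoplasmic reticulum, rose by 6.68 and Ryr1, its calcium release channel, by 4.07. Ckmt2, the mitochondrial creatine kinase of muscle, was at 0, 0 and 0.0260 FPKM at day 0 and at 120, 118 and 112 FPKM at day 7. The 2 members that were not called both belong to the neuromuscular junction, with Chrna1, a subunit of the acetylcholine receptor, at 57.5, 61.4 and 57.8 and then 141, 141 and 148 FPKM (1.27) and Rapsn, its clustering protein, at 35.6, 37.2 and 35.9 and then 30.5, 32.1 and 31.1 FPKM (-0.21). Both were already expressed at day 0. Other junction genes of this list were called higher, with Chrng at 4.11, Chrnd at 3.96, Chrnb1 at 2.05 and Musk at 1.63.

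The regulators above these genes split into those that rose and those that did not. Myog, myogenin, (chromosome 1, 136186581 to 136189124, mm9) went from 15.4, 17.9 and 15.5 to 349, 584 and 533 FPKM (4.79 ± 0.16 SE, limma adjusted p = 5.80e-14). Myf6, the myogenic factor of late differentiation, went from 0.110, 0.196 and 0.216 to 35.3, 34.9 and 37.7 FPKM (4.98), and Mef2c, which acts together with the myogenic factors, from 0.741, 0.808 and 1.03 to 22.0, 23.1 and 26.1 FPKM (3.73). Myod1, the factor at the head of the cascade, was at 42.9, 40.0 and 42.2 FPKM at day 0 and at 33.9, 50.2 and 40.2 FPKM at day 7. Its day-7 samples enclose those of day 0, and the change was -0.03 (adjusted p = 0.865). Of the 19 myogenic regulators and fusion genes tested, 5 rose (Myog, Myf6, Mef2c, Cav3 and Dok7), against 3.91% of all genes, and none fell. Mymk, the fusion protein myomaker, was not in the list under that symbol, but it went from 3.94, 4.66 and 4.11 to 184, 228 and 219 FPKM (5.33), as seen after the values were known. Among inhibitors of the myogenic factors, Id3 went from 362, 343 and 358 to 84.6, 81.3 and 69.6 FPKM (-2.16) and Id2 from 69.1, 69.6 and 69.1 to 15.6, 14.5 and 16.0 FPKM (-2.10). They were the 2 genes that fell among 17 tested bHLH repressors and Notch genes (2.93% of all genes), and none of these 17 rose. The myoblast markers were still present at day 7, with Des, the muscle intermediate filament desmin, the only one of 6 that was called (1.67) and Cdh15, M-cadherin, at 85.5, 81.4 and 77.5 FPKM.

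**Figure D2:**
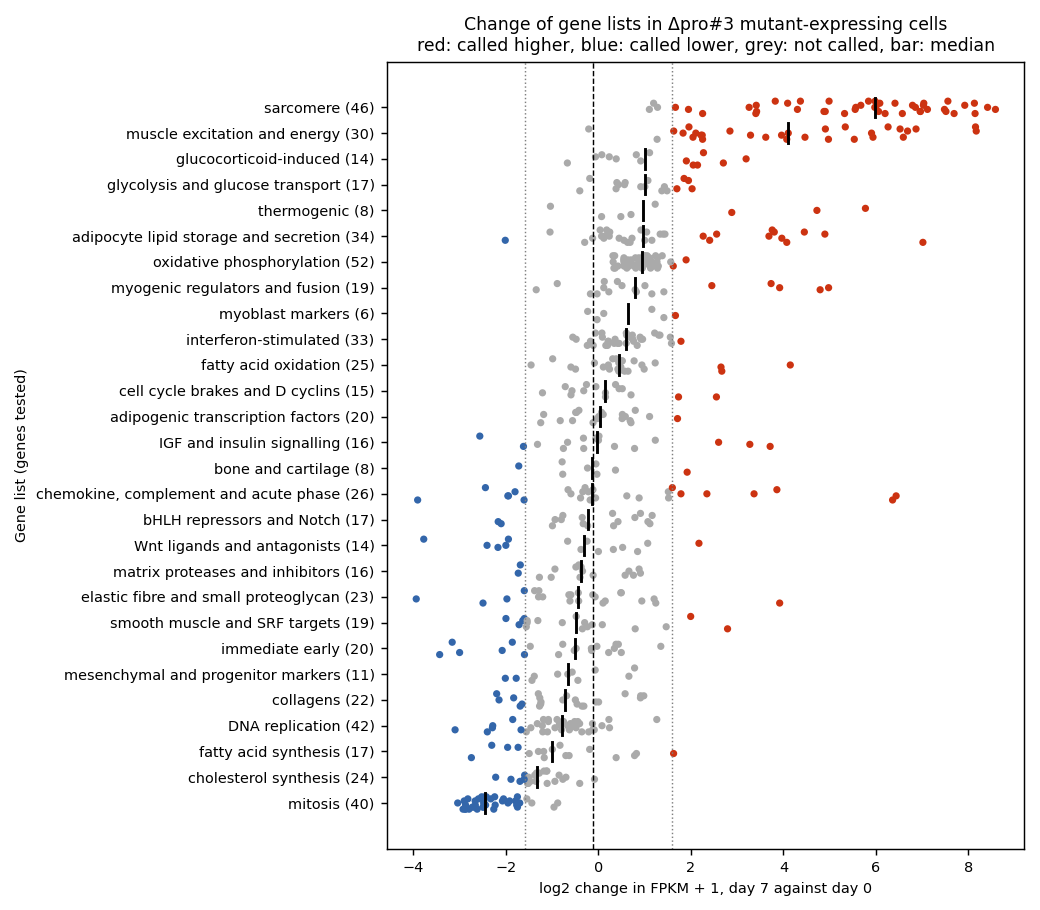
Log2 change in FPKM + 1 (day 7 against day 0) of each tested gene of 28 lists, ordered by the median of the list (black bar), with the dotted lines at 3-fold and the dashed line at the median of all genes. The sarcomere genes lie farthest to the right (median 5.98) and the mitosis genes farthest to the left (median -2.45). The oxidative phosphorylation genes form a narrow band (median 0.95), with 2 of 52 past 3-fold.

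Of 40 mitosis genes tested, 36 fell and none rose, with a median change of -2.45, and all 40 were lower at an adjusted p under 0.05, as were 46.7% of all genes. Their summed FPKM went from 707 ± 22.6 to 118 ± 12.6 (SD, n = 3). Mki67, which encodes the proliferation marker Ki-67, went from 24.1, 23.4 and 25.5 to 2.37, 1.54 and 2.39 FPKM (-3.04 ± 0.15 SE, limma adjusted p = 1.02e-11). Hmmr, a spindle protein, went from 17.7, 17.2 and 17.6 to 1.58, 0.978 and 1.83 FPKM (-2.92), and Ndc80, of the kinetochore, from 14.1, 15 and 16.0 to 1.33, 0.952 and 1.18 FPKM (-2.90). All of these genes had no overlap between the days. The members that missed the threshold were Prc1 (-1.54), Cdk1 (-1.44), Cdc25b (-0.96) and Mybl2 (-0.88). Of 42 genes of DNA replication, 6 fell (2.93% of all genes, and 11 of the 42 with a pseudocount of 0.1 or limma-voom) and none rose, with 36 lower and 2 higher at an adjusted p under 0.05 and a median of -0.79. Tk1, thymidine kinase, went from 24.0, 23.2 and 27.6 to 2.39, 1.43 and 2.35 FPKM (-3.10), and Gins2, of the replicative helicase, from 12.8, 12.9 and 14.4 to 2.13, 1.49 and 1.58 FPKM (-2.40), whereas Pcna, the replication clamp, was lower by only 0.36 on the log2 scale. Of 15 genes that restrain the cycle or encode D cyclins, 2 rose (3.91% of all genes). Cdkn1a, the inhibitor p21, went from 73.5, 73.1 and 70.1 to 398, 460 and 430 FPKM (2.55), and Ccnd3, cyclin D3, from 48.6, 46.2 and 48.5 to 151, 173 and 160 FPKM (1.73).

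Genes of adipocytes gave a mixed picture. Pparg, the receptor that rosiglitazone binds, (chromosome 6, 115311239 to 115440419, mm9) was at 8.98, 8.61 and 9 FPKM at day 0 and at 8.56, 7.91 and 7.88 FPKM at day 7 (-0.11 ± 0.08 SE, limma adjusted p = 0.174), and under median-ratio scaling the change was 0.00. Cebpa, which works with it, was at 17.2, 14.7 and 16.0 and then 14.0, 10.8 and 7.59 FPKM (-0.56, adjusted p = 0.00143, short of 3-fold). Of 20 adipogenic transcription factors tested, 1 was called higher (3.91% of all genes were) and none fell. It was Klf5, a factor of early adipogenesis, going from 2.46, 2.48 and 2.59 to 8.71, 12.6 and 10.5 FPKM (1.71). The study describes KLF5 as a positive regulator of myogenesis, so its rise need not mark adipogenesis. Zfp423, a factor of preadipocytes, was under 1 FPKM in all 6 samples.

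Of 34 genes for lipid storage and adipocyte secretion, 11 nevertheless rose (3.91% of all genes) and 1 fell, with a median change of 0.96. Fabp4 (chromosome 3, 10204347 to 10208576, mm9), the fatty acid binding protein of adipocytes, was at 7.37, 0.478 and 4.53 FPKM at day 0 and at 1415, 294 and 354 FPKM at day 7. The day-7 samples were all higher but unequal, with replicate 1 far above the others, and the Fabp4 change was 7.02 ± 0.53 (SE, limma adjusted p = 2.15e-09). Cidec, a lipid droplet protein, went from 0.584, 0 and 0.202 to 105, 18.7 and 23.1 FPKM (4.90), Cd36, a fatty acid transporter, from 0.291, 0.0621 and 0.128 to 34.7, 18.8 and 22.0 FPKM (4.45), and Adipoq, the hormone adiponectin, from 0.778, 0.429 and 0.595 to 65.6, 13.1 and 15.4 FPKM (3.97). In each of them, day-7 replicate 1 was the highest. Slc2a4, the insulin-responsive glucose transporter, which muscle also makes, went from 0.177, 0.0861 and 0.150 to 16.0, 14.6 and 12.8 FPKM (3.76). Lipe, a lipase of stored fat, Plin2, a lipid droplet coat protein, and Lpl were not called. Lpl, lipoprotein lipase, which acts on circulating lipoproteins, was at 295, 311 and 288 and then 369, 256 and 303 FPKM. The member that fell was Cav1, which encodes caveolin-1, from 233, 239 and 236 to 57.3, 51.0 and 65.7 FPKM (-2.01).

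Day-7 replicate 1 was the highest of the 3 day-7 samples for 30 of the 34 adipocyte genes, against 41.0% of all genes tested, and lay a median of 0.59 (log2) above the mean of the others. The same library was the highest for 32 of 33 interferon-stimulated genes (median 0.51) and 22 of 25 fatty acid oxidation genes (0.18), but for 26 of 46 sarcomere genes (0.06) and 13 of 40 mitosis genes (0.03). Without it, Fabp4 still rose by 6.31 (6.28 without day-0 replicate 2), Cidec by 4.13, Cd36 by 4.2 and Adipoq by 3.26, and 11 adipocyte genes were called higher. What sets it apart was not tested.

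**Figure D3:**
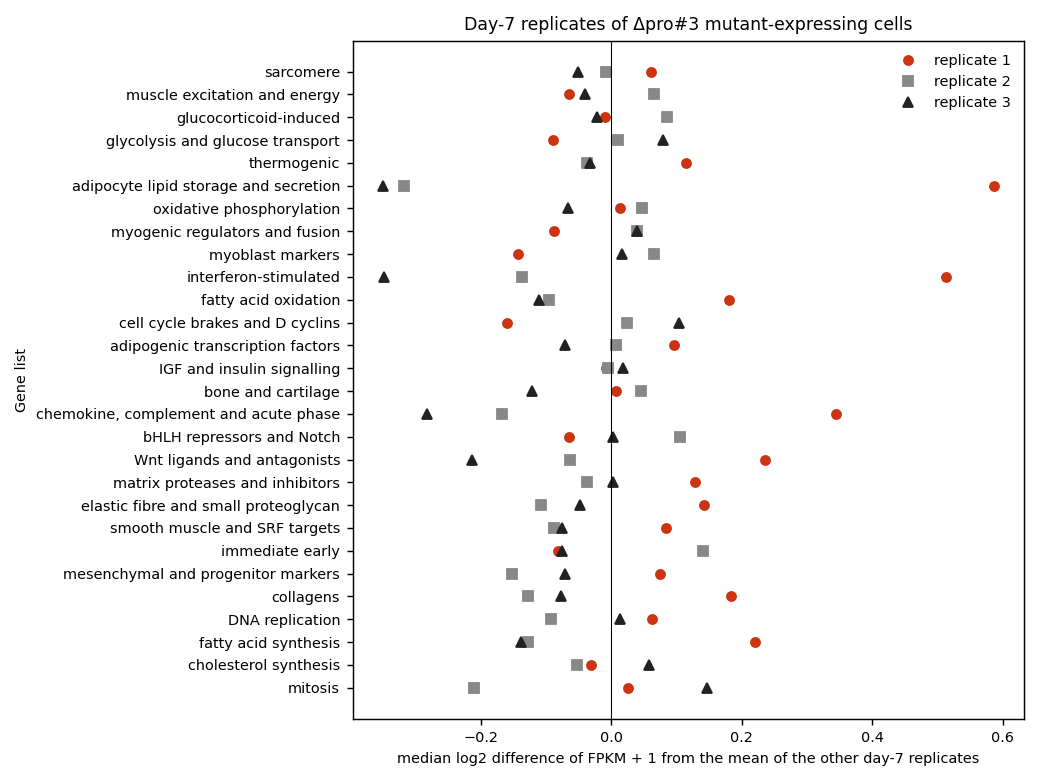
Median, over the tested genes of each list, of the log2 difference of FPKM + 1 between 1 day-7 sample of Δpro#3 mutant-expressing cells and the mean of the others (replicate 1 as red circles, 2 as grey squares, 3 as black triangles). Replicate 1 lies at 0.59 for the adipocyte list and 0.51 for interferon-stimulated genes but at 0.06 for the sarcomere list.

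Of 18 genes of heat production in brown fat, 10 were too low to be tested and 3 of the other 8 rose (3.91% of all genes), with a median change of 0.97. The summed FPKM of the 18 went from 25.3 ± 1.14 to 317 ± 36.1 (SD, n = 3), with Cox8b the highest member at day 7. Ucp1, the uncoupling protein of brown fat, was listed at 0 in all 6 samples, and Cidea was at most 0.152 FPKM at day 7. Ppargc1a, a coactivator of mitochondrial genes, went from 0.222, 0.247 and 0.263 to 0.926, 1.09 and 1.07 FPKM, which is 0.71 on the log2 scale of FPKM + 1 and short of 3-fold, although with a pseudocount of 0.1 it was called (1.71). The 3 genes of this list that rose were Cox8b (5.77) and Cox7a1 (4.72), subunits of cytochrome c oxidase that skeletal muscle also uses, and Dio2 (2.88), which activates thyroid hormone. Cox8b went from 3.52, 2.13 and 2.13 to 230, 188 and 164 FPKM.

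Genes of oxidative phosphorylation were higher at day 7 by small steps. All 52 tested were higher at an adjusted p under 0.05 (32.8% of all genes), with changes of up to 1.90 and a median of 0.95, and 2 of them passed 3-fold, Atp5g1 (1.90) and Uqcrq (1.62). Atp5g1, a subunit of the ATP synthase, went from 74.8, 70.5 and 76.1 to 287, 281 and 265 FPKM. Uqcrq was short of 3-fold without day-7 replicate 2 (1.51) or without day-0 replicate 2 (1.57). Of 17 genes of glycolysis and glucose transport, 4 rose (3.91% of all genes), which were Hk2 (2.03), Aldoa (1.95), Ldhb (1.85) and Gapdh (1.70). Aldoa, aldolase A, went from 554, 573 and 541 to 2060, 2209 and 2174 FPKM. In fatty acid oxidation, 3 of 25 genes rose (3.91% of all genes). Fabp3, the fatty acid binding protein of heart and muscle, rose by 4.15, Angptl4, a secreted inhibitor of lipoprotein lipase, by 2.67, and Ucp3, the uncoupling protein of muscle, by 2.65.

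Lipid synthesis went the other way. Of 24 cholesterol synthesis and uptake genes, 23 were lower at an adjusted p under 0.05 (46.7% of all genes) and the median change was -1.33, but only 5 passed 3-fold (2.93% of all genes) and several lay close to it. Cyp51, a sterol demethylase of the pathway, went from 58.5, 59.5 and 61.2 to 15.3, 15 and 16.0 FPKM (-1.89), and Stard4, a sterol carrier, from 18, 18.8 and 19.8 to 4.39, 4.95 and 6.19 FPKM (-1.69). Under median-ratio scaling, 2 of the 24 passed 3-fold and Stard4 did not (-1.58). Of 17 genes of fatty acid synthesis, 4 fell (2.93% of all genes) and 1 rose (3.91%). Elovl6, an elongase, went from 29.7, 30.5 and 31.1 to 3.31, 3.72 and 4.06 FPKM (-2.74), and the desaturases Fads2 and Fads1 fell by 2.30 and 1.96 on the log2 scale. Thrsp, a lipogenic gene, rose from 0.497, 0 and 0.210 to 5.94, 1.65 and 1.90 FPKM (1.63), and it was short of 3-fold without day-7 replicate 1 (1.19) or day-0 replicate 2 (1.48).

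**Figure D4:**
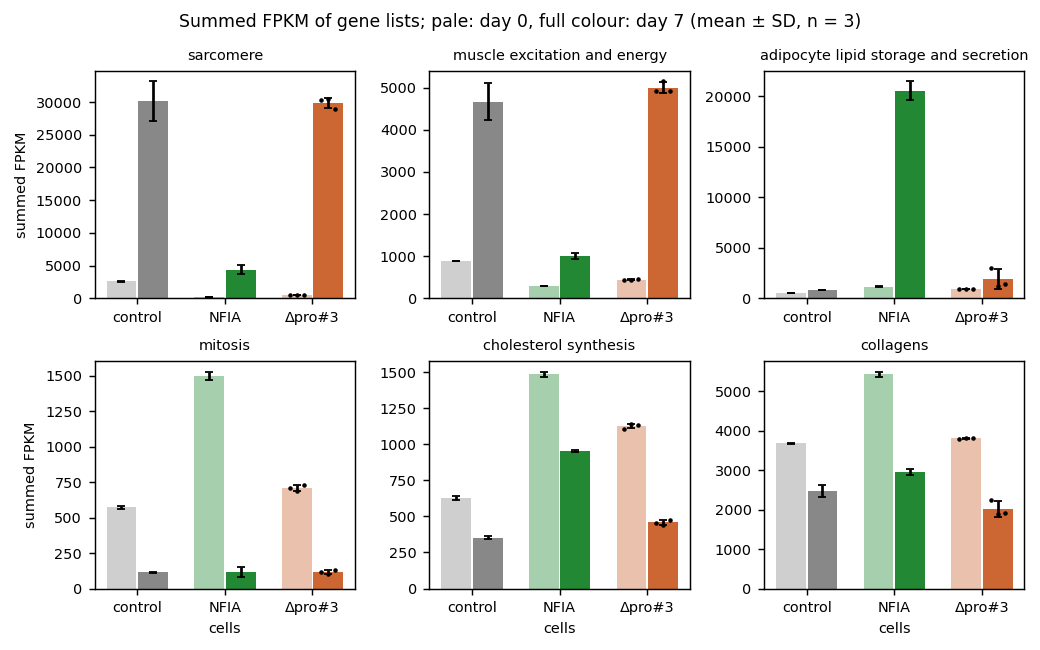
Summed FPKM of 6 gene lists at day 0 (pale bars) and day 7 (full bars) in control, full-length NFIA and Δpro#3 cells, as mean ± SD (n = 3), with the single Δpro#3 mutant samples as points. The sarcomere sum at day 7 is 29897 in Δpro#3 mutant-expressing, 30117 in control and 4386 in full-length NFIA-expressing cells, and the adipocyte sum is 1876, 802 and 20543 in the same order.

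Among genes of the matrix that cells deposit, most calls were lower. Of 22 collagen genes, 5 fell (2.93% of all genes) and none rose, with a median of -0.73. Col12a1, which coats collagen fibrils, went from 113, 112 and 117 to 28.8, 22.4 and 24.1 FPKM (-2.15), Col16a1 fell by 2.20 on the log2 scale, and Col1a2, a chain of type I collagen, went from 1175, 1193 and 1188 to 426, 346 and 363 FPKM (-1.65, or -1.52 and short of 3-fold under median-ratio scaling, which left 3 collagens called). Of the small proteoglycans that bind collagen, Fmod, fibromodulin, fell from 17.8, 17.4 and 17.1 to 0.283, 0.146 and 0.181 FPKM (-3.94), while Dcn, decorin, (chromosome 10, 96942245 to 96980777, mm9) rose from 44.1, 44.1 and 43.7 to 879, 581 and 614 FPKM (3.92 ± 0.13 SE, limma adjusted p = 6.52e-14). Of the 23 genes of elastic fibres and small proteoglycans tested, 1 rose (3.91% of all genes) and 4 fell (2.93%), with 6 higher and 13 lower at an adjusted p under 0.05. Besides Fmod, those that fell include Mfap2 (-2.49) and Emilin1 (-1.98), of elastic fibres, while Eln, elastin itself, was at 2.81, 2.42 and 2.66 and then 7.74, 7.79 and 7.22 FPKM (1.24, short of 3-fold). Mmp14, a membrane protease that cuts collagen, fell from 263, 280 and 268 to 94.7, 74.1 and 74.7 FPKM (-1.73).

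Secreted immune and growth factors also moved both ways. Of 26 genes of chemokines, complement and the acute phase, 7 rose (3.91% of all genes) and 6 fell (2.93%). Hp, haptoglobin, rose from 0.475, 0.302 and 0.660 to 286, 87.0 and 81.0 FPKM (6.44) and C3, the central complement protein, from 0.266, 0.206 and 0.203 to 169, 79.7 and 73.2 FPKM (6.36). In both, day-7 replicate 1 was well above the others, and without it they rose by 5.85 and 5.98. Serping1, the inhibitor of C1, went from 3.99, 3.46 and 3.73 to 84.7, 61.5 and 59.1 FPKM (3.86). Among the 6 that fell were chemokine genes, with Cxcl5 going from 138, 128 and 129 to 9.72, 7.79 and 6.38 FPKM (-3.91) and Cxcl1 from 36.4, 33.9 and 32.6 to 5.50, 6.39 and 4.70 FPKM (-2.44). The interferon-stimulated genes had a median of 0.60, and 1 of 33, Bst2, was called, at 7.09, 7.96 and 6.45 and then 41.4, 25.2 and 18.9 FPKM (1.79, or 1.49 and short of 3-fold without day-7 replicate 1).

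Of 16 genes of insulin-like growth factor and insulin signalling, 3 rose (3.91% of all genes) and 2 fell (2.93%). The binding protein Igfbp4 rose (2.60) and Igfbp2 fell (-1.62, or -1.50 and short of 3-fold under median-ratio scaling). Igf2, an autocrine factor of muscle differentiation, rose from 9.66, 9.97 and 10.1 to 125, 156 and 147 FPKM (3.71). H19, the noncoding RNA of the same imprinted locus, rose from 1042, 1041 and 985 to 8514, 10968 and 10392 FPKM (3.27). Irs1, which links the insulin receptor to its signal, fell from 47.5, 47.6 and 46.7 to 7.15, 6.95 and 7.41 FPKM (-2.56). Of 14 genes induced by glucocorticoids, 6 rose (3.91% of all genes) and none fell. Tsc22d3, known as GILZ, went from 21.9, 21.9 and 21.1 to 132, 155 and 153 FPKM (2.70), and Zbtb16 from 0.00892, 0 and 0 to 9.49, 7.44 and 7.73 FPKM. Dexamethasone was in the medium only in the first step. The immediate early genes, which respond to serum within minutes, showed 6 of 20 lower (2.93% of all genes) and none higher. Egr1 went from 183, 175 and 173 to 20.9, 19 and 17.1 FPKM (-3.16), and Egr2 from 15, 15.4 and 15 to 0.298, 0.569 and 0.648 FPKM (-3.43).

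The largest fall of all was in Ptn, the growth factor pleiotrophin, from 22.1, 20.6 and 22.0 to 0.281, 0.348 and 0.323 FPKM (-4.10 ± 0.13 SE, limma adjusted p = 2.50e-14). Among the other 9 were Stmn2, a microtubule regulator (-3.83), Sfrp2, a secreted antagonist of Wnt (-3.77), Csf2rb, a cytokine receptor subunit (-3.77), Piezo2, a mechanosensitive channel (-3.29), and Ifitm1 (-3.22). Sfrp2 went from 200, 202 and 188 to 20.2, 10.5 and 11.3 FPKM. The row named Mir703 (-3.34) is a short microRNA gene in libraries made for messenger RNA, so its value is uncertain. Of 14 Wnt ligands and antagonists tested, 5 fell (2.93% of all genes) and 1 rose (3.91%), with Wnt10b, an inhibitor of adipogenesis, going from 17.6, 16.4 and 17.1 to 3.41, 1.88 and 2.10 FPKM (-2.41) and Wisp2 from 5.25, 4.79 and 5.04 to 32.3, 23.8 and 23.4 FPKM (2.17).

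The lists that could show other cells held many genes at or near 0 and a few at higher levels. The summed FPKM of the haematopoietic list was 18.9 at day 0 and 15.1 at day 7. It was 20.9 and 9.51 for the epithelial and 29.3 and 7.76 for the neural list. The highest member mean at day 0 was 10.7, 14.0 and 26.1 FPKM in the same order of lists. Tyrobp and Rbfox3, markers of myeloid cells and neurons, were listed at 0 in all 6 samples, Ptprc was at most 0.0272, Pecam1 at most 0.0274 and Epcam at most 0.0443 FPKM. None of the 7 endothelial genes was tested, and their sum was 0.713 ± 0.0842 FPKM at day 0 and 0.613 ± 0.0508 at day 7 (SD, n = 3). Of the haematopoietic genes, 3 were tested, of which Lyz2 fell (-1.98) and Cd14 and Cd68 were not called. The epithelial and neural lists had 2 tested genes each, of which Krt14 (-2.86) and Tubb3 (-2.93) fell. For the lists that follow, the shares over all genes are again 3.91% higher and 2.93% lower. Of 11 mesenchymal and progenitor markers, 2 fell, with S100a4 going from 5896, 6040 and 6177 to 1905, 1199 and 1470 FPKM (-2.01) and Pdgfrb, a growth factor receptor, from 124, 125 and 127 to 46.0, 31.5 and 31.8 FPKM (-1.78). Of 19 genes of smooth muscle and of the serum response factor, 2 rose (Tpm1 and Tpm2, which striated muscle also uses) and 4 fell, of which Myl9 (-2.00) passed 3-fold under median-ratio scaling and Cnn2 (-1.50), Cyr61 (-1.58) and Csrp2 (-1.47) did not. Of 8 bone and cartilage genes, Bglap rose (1.92) and Sox9 fell (-1.72). Of 16 matrix proteases and inhibitors, Mmp14 and Serpine2 fell and none rose, with Serpine2 short of 3-fold under median-ratio scaling (-1.56).

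The change was next set beside that of the other cells over the same days. Control cells had 453 genes higher (3.65%) and 378 lower (3.05%), and full-length NFIA-expressing cells 667 higher (5.38%) and 585 lower (4.71%). Across the 12408 genes, which are not independent replicates, the change in Δpro#3 mutant-expressing cells had a Pearson's r of 0.83 with that in control cells and 0.70 with that in full-length NFIA-expressing cells. Of the 485 genes that rose with the mutant, 313 also rose in control cells (64.5% of 485 and 69.1% of 453) and 256 with full-length NFIA (52.8% of 485 and 38.4% of 667). Of the 364 genes that fell, 194 also fell in control cells (53.3% of 364 and 51.3% of 378) and 243 with full-length NFIA (66.8% of 364 and 41.5% of 585). The difference between changes was then tested itself. The change was called higher with the mutant than in control cells for 191 genes (1.54%) and lower for 102 (0.822%), and higher than with full-length NFIA for 273 (2.20%) and lower for 397 (3.20%).

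**Figure D5:**
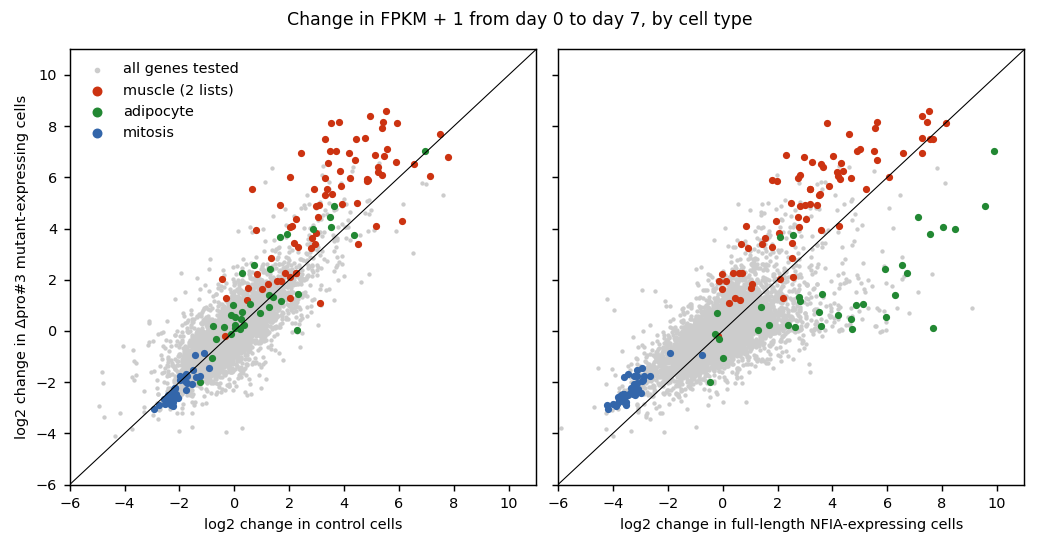
Log2 change in FPKM + 1 from day 0 to day 7 of each gene in Δpro#3 mutant-expressing cells (vertical) against control cells (left) and full-length NFIA-expressing cells (right), with the line of equal change. Muscle genes (red) lie mostly above the line in both panels, and adipocyte genes (green) lie mostly below it against full-length NFIA, where 23 of 34 were called lower.

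The muscle genes changed by more in Δpro#3 mutant-expressing than in control cells, from a lower start. Of the 46 sarcomere genes, 23 had a change that was called higher than in control cells and 2, Tcap and Tmod4, lower, with a median difference of 1.65 (1.54% of all genes were called higher and 0.822% lower), and of the 30 excitation and energy genes 12 were called higher and none lower (1.42). At day 0, the level of the 76 genes of both lists was below that of control cells for 70 genes, with a median log2 ratio of -1.51, while at day 7 it was below for 42 and above for 34, with a median of -0.14. The sum of the sarcomere genes was 562 ± 4.42 FPKM with the mutant and 2595 ± 86.9 in control cells at day 0, and 29897 ± 801 against 30117 ± 3031 at day 7 (SD, n = 3). The day-7 means of the sarcomere sum thus differed by less than the SD of the control samples. The sum of the myogenic regulators and fusion genes was lower with the mutant on both days. It was 474 ± 1.14 FPKM against 906 ± 11.9 in control cells at day 0, and 1195 ± 151 against 2118 ± 113 at day 7. Acta1 changed by 8.14 with the mutant against 3.52 in control cells (difference 4.62, limma adjusted p = 2.11e-13). Myog changed by 4.79 with the mutant and 2.97 in control cells (difference 1.82), and Myod1, which did not pass in mutant-expressing cells, changed by 0.73 in control cells (difference -0.75, adjusted p = 0.00513, short of 3-fold).

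Against full-length NFIA, the muscle genes were higher with the mutant on both days, and by more at day 7. All 76 genes were higher with the mutant at day 7, with a median log2 ratio of 2.38, and 72 of 76 at day 0, with a median of 0.54. The change was called higher with the mutant for 28 of the 46 sarcomere genes and 16 of the 30 excitation and energy genes (2.20% of all genes), and lower for none (3.20%). The sarcomere sum with full-length NFIA was 241 ± 7.36 FPKM at day 0 and 4386 ± 706 at day 7. Not every muscle gene followed. Acta1 changed by 8.16 with full-length NFIA and 8.14 with the mutant, and Myog by 6.06 against 4.79 (difference -1.27, limma adjusted p = 0.000111, short of 3-fold but -1.71 and past it with a pseudocount of 0.1). Ckmt2 (difference 4.57, which depends on the pseudocount as its day-0 values are at or near 0) and Myf6 (4.41) were at the other end. Myf6 changed by 0.56 with full-length NFIA, 4.98 with the mutant and 6.13 in control cells.

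The adipocyte genes differed the other way. Of the 34, 23 had a change called lower than with full-length NFIA (3.20% of all genes) and none higher, with a median difference of -2.83, whereas against control cells 4 were called higher (Cfd, Retn, Plin1 and Agt) and 1, Lpl, lower, with a median of 0.29. Without day-7 replicate 1, the differences of Cfd (1.34), Retn (1.15) and Plin1 (1.45) from control cells were short of 3-fold and that of Agt was 1.66. Pparg changed by -0.11 with the mutant, by 1.09 in control cells (difference -1.20, adjusted p = 1.52e-07) and by 1.42 with full-length NFIA (difference -1.53, adjusted p = 2.60e-09, both from limma and both short of 3-fold, although the second passed with a pseudocount of 0.1, at -1.60, and with limma-voom, at -1.65). The sum of the adipocyte genes at day 7 was 1876 ± 995 FPKM with the mutant, 802 FPKM in control cells and 20543 FPKM with full-length NFIA. Adipoq changed by 3.97 with the mutant (3.26 without day-7 replicate 1), 2.87 in control cells and 8.46 with full-length NFIA. Fabp4 changed by 7.02, 6.95 and 9.90 in the same order, and its difference from control cells was 0.06 (adjusted p = 0.953) with a sign that turned under other settings. None of the 40 mitosis genes had a change called different from that in control cells (1.54% and 0.822% of all genes were), and the median difference was -0.24. At an adjusted p under 0.05, 1 was higher and 12 were lower, against 2341 and 3209 of all 12408 genes. Compared with full-length NFIA, the difference was above 0 at an adjusted p under 0.05 for 4211 of all 12408 genes and for 39 of the 40 mitosis genes (median 1.04). Their sum at day 0 was 1500 FPKM with full-length NFIA against 707 FPKM with the mutant, and 2 genes were called higher (2.20% of all genes), Pttg1 (-1.70 with the mutant, or -1.58 and short of 3-fold under median-ratio scaling, against -3.44) and Ckap2 (-1.79 against -3.61).

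For some genes, the change in Δpro#3 mutant-expressing cells was called different from that in control cells and from that with full-length NFIA. Both differences use the same mutant samples, so they are not independent and are given side by side for a few genes only, and the genes named in this paragraph other than Dcn were picked after their values were seen. Dcn changed by 3.92 with the mutant, 0.14 in control cells and 1.69 with full-length NFIA. Art1, a mono-ADP-ribosyltransferase of muscle, went from 0.0966, 0.0287 and 0.109 to 78.5, 76.3 and 65.4 FPKM, with changes of 6.10, 3.21 and 1.98 in the same order. Car14, a membrane carbonic anhydrase, was listed at 0 in the day-0 samples and was at 13.7, 18.7 and 15.4 FPKM at day 7, against means of 0.516 FPKM in control and 1.5 FPKM in full-length NFIA-expressing cells. In the other direction, Dhrs3, which reduces retinaldehyde, fell from 18.6, 19.3 and 17.3 to 3.19, 2.41 and 2.48 FPKM (changes of -2.40, -0.47 and -0.24). Inhbb, a subunit of activin, fell from 41.1, 41.2 and 39.6 to 10.4, 11.3 and 10.6 FPKM (-1.82, against 0.13 and 0.53).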

How the data were processed

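Polyadenylated RNA of C2C12 cells was sequenced from stranded libraries. The authors aligned the reads to mm9 with STAR (2.5.3a per the labels), counted strand-matched fragments per gene with it and deposited FPKM per sample, with no log transform, for 24825 genes. Fragment numbers were worked back from the FPKM (100% of values whole within 0.01 of a fragment, or a millionth of the value where that is larger). Symbols turned into dates (26) were kept. Changes were fitted with limma 3.58.1 (R 4.3.3, trend) to log2(FPKM + 1) of the 18 samples without forskolin, with 1 mean per group, over genes whose mean FPKM over these 18 samples reached 0.5, and p-values were 2-sided and adjusted by Benjamini-Hochberg over all 12408 genes. The members and lists were chosen with earlier results of these data known. Named genes are those of the study, the 10 largest rises and falls (mean FPKM at least 1, no overlap between days), up to 3 called genes per list and direction (the 2 most abundant where fewer than 2 were called), and the 5 largest differences each way. Other genes, such as list members short of the threshold, were chosen after their values were seen. In simulated data of this comparison (11981 genes, 200 changed), 80% of 4-fold and 96% of 8-fold changes were recovered and 0 unchanged genes called. At an adjusted p under 0.05 alone, 11 unchanged genes passed. The simulated samples had 1 fixed dispersion and no outlying library, and the changed genes were drawn from the better expressed ones. These rates therefore need not hold for the real samples, whose day-7 replicates were more unequal. After the mean of its group was subtracted from each gene, the deviations of same-numbered samples of both days correlated at 0.085, -0.055 and 0.057. The samples were not taken as pairs. Alternatives are listed in the closing section. Positions are from GENCODE vM1. Figures used Python 3.11.15 and matplotlib 3.10.9. Results for a few genes are not reported here.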

Additional observations from a re-analysis of the deposited data

Results flagged for a closer look

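The changes of the Δpro#3 mutant-expressing cells differed from those of the other cells by tests of the difference itself (limma, 18 samples, 3 per group). Against control cells, the change was called higher for 191 genes and lower for 102. Among called genes with a mean of 1 FPKM or more over the 6 mutant samples, the 5 largest differences upward were C3 (4.98), Sln, which regulates the muscle calcium pump (4.88), Pdlim3, of the muscle Z-disc (4.67), Acta1 (4.62) and Actc1, cardiac actin (4.51). The 5 largest downward were Sfrp2 (-4.05), Fmod (-3.65), 4930486L24Rik (-3.46), Ang2 (-3.19) and Rpl14-ps1 (-3.06). Rpl14-ps1 is a processed pseudogene copy and Ang2 has close paralogs. The authors kept only reads that align to a single place, so reads that match a copy equally well were dropped. The values of both genes are therefore uncertain. With limma-voom on fragments, the differences of C3 and Sln were 2.65 and 2.78 and no longer passed an adjusted p of 0.05. Of the genes the study names, Myl4 (2.53) and Myog (1.82) differed by more than 3-fold, and Pparg (-1.20), Cebpa (-0.88), Gm45923 (-0.85), Myod1 (-0.75), Klf5 (0.72) and Zfp423 (-0.39) by less, at an adjusted p under 0.05.

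Against full-length NFIA-expressing cells, the change was called higher for 273 genes and lower for 397. With the same limit of 1 FPKM, the 5 largest differences upward were Eln, elastin (5.47), Slpi, a secreted protease inhibitor (4.76), Ckmt2 (4.57), Il1rn, the interleukin-1 receptor antagonist (4.56), and Myf6 (4.41). The 5 largest downward were Cmbl (-5.84), Fam213a (-5.75), Ppp1r1a (-5.59), Adig, adipogenin (-5.39), and Dgat2, which makes triglyceride (-4.88). Of the genes the study names, Cidea (-4.66), Fabp4 (-2.88), Cebpa (-1.73), Myh8 (3.10) and Myl4 (2.36) differed by more than 3-fold. Pparg (-1.53), Ppargc1a (-1.39), Myog (-1.27), Nfix (-0.72), Klf5 (0.48), Nfib (-0.38) and Nfic (0.26) differed by less, at an adjusted p under 0.05. With limma-voom on fragments, the differences of Myh8 (0.49) and Fabp4 (-2.28) did not pass an adjusted p of 0.05. Without day-7 replicate 1 of the mutant-expressing cells, the differences of Fabp4 (-3.59), Adig (-6.15) and Ppp1r1a (-6.23) were larger. Without the same library, the change in mutant-expressing cells itself was 1.48 for Adig and 1.46 for Il1rn, both called with all samples (2.23 and 1.61) and short of 3-fold without it, and 0.89 for Ppp1r1a (1.53 with all samples). Without day-7 replicate 3 of the mutant-expressing cells, the difference of Cebpa was -1.52 and short of 3-fold. With limma-voom, those of Pparg (-1.65), Myog (-1.78) and Ppargc1a (-2.09) passed 3-fold. The causes of these differences were not tested.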

How the results depend on the processing

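The alternatives were a pseudocount of 0.1, median-ratio scaling, no filter, a minimum mean FPKM of 5, no trend, limma-voom on fragments, the replicate number as a block, the 6 Δpro#3 mutant samples alone, and leaving out each sample. With a pseudocount of 0.1 and with limma-voom, 736 and 795 genes rose and 671 and 746 fell in the mutant-expressing cells, including all 485 that rose. The change was higher than in control cells for 366 and 392 genes and lower for 220 and 282, and higher than with full-length NFIA for 443 and 445, and lower for 602 with limma-voom. DNA replication genes called lower numbered 11 under both. Median-ratio scaling gave 542 genes higher and 287 lower and left 2 cholesterol synthesis genes and 3 collagens called lower. With the replicate block, 485 genes rose and 364 fell, and the counts for both differences were the same as without it. The replicate numbers mark no stated pairing. Leaving out 1 sample gave 483 to 499 genes higher, 342 to 372 lower and 3 to 6 cholesterol synthesis genes lower (3 without day-0 replicate 3 or day-7 replicate 2).

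Signs turned for the following values. For the change in mutant-expressing cells under median-ratio scaling they were Pparg (0.0040), Myod1 (0.10), Cmbl (0.12) and Fam213a (0.052). With 1 sample left out they were Nfia (-0.099 to 0.080), Nfic (-0.061 to 0.079), Myod1 (-0.17 to 0.11), B2m (-0.0056 to 0.13), Cmbl (-0.13 to 0.069) and Fam213a (-0.48 to 0.30). For differences from control cells they were Nfib with scaling (0.0031) and Fabp4 with a pseudocount of 0.1 (-1.36), limma-voom (-1.75) and 1 sample left out (-0.67 to 0.58). For differences from full-length NFIA they were Zfp423 with a pseudocount of 0.1 (-0.28) and limma-voom (-0.46) and Gm45923 with 1 sample left out (-0.036 to 0.30). Differences from full-length NFIA that were short of 3-fold passed it with a pseudocount of 0.1 and with limma-voom for Pparg (-1.60 and -1.65, and -1.62 without full-length NFIA day-0 replicate 3), Myog (-1.71 and -1.78) and Ppargc1a (-2.03 and -2.09). Under median-ratio scaling, Serpine2 (-1.56), Igfbp2 (-1.50, and -1.51 without day-7 replicate 1), Cyr61 (-1.58) and Cnn2 (-1.50) no longer passed 3-fold. The causes were not tested. With 3 samples per group, and depth down to 9567769 fragments over the 18 samples, changes of genes with a mean under 0.5 FPKM were not tested.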
